A study of Mus musculus with 10 samples.

Results

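Glutathione transferases and the enzymes that remove superoxide and peroxides were examined as a set of 49 protein-coding genes among the 26040 genes listed in the count table. They were taken by name: the alpha, mu, theta, pi, omega, zeta, kappa and membrane-bound glutathione transferases, the glutathione peroxidases and the peroxiredoxins. Genes of glutathione synthesis and reduction, catalase, the superoxide dismutases and thioredoxin reductase 1 were added. Of the 49 genes, 46 had enough counts to be tested. Gpx2, Gpx5 and Gpx6 did not.

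The libraries came from total RNA of epididymal white adipose tissue, a visceral fat depot attached to the epididymis. Of the C57BL/6 mice, 5 formed the knockout group, with Sucnr1, the gene of the succinate receptor, deleted in adipocytes (Ad-Sucnr1 KO). The control group held 5 C57BL/6 Sucnr1fl/fl mice, which carry the floxed alleles. The labels name neither the Cre driver nor the age or diet of the mice. The comparison asks what loss of the receptor from adipocytes does to the RNA of the whole tissue, in which other cell types keep the gene.

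Glutathione is a small thiol that cells use to reduce peroxides and to trap reactive lipid and drug products. Transferases join it to such products, whereas peroxidases spend it to reduce peroxides, and glutathione reductase returns the oxidised form to use. Peroxiredoxins do similar work with electrons from thioredoxin, catalase splits hydrogen peroxide in peroxisomes, and superoxide dismutases make hydrogen peroxide from superoxide. In fat, GSTA4 is known for conjugating 4-hydroxynonenal, an aldehyde released when lipids are oxidised.

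Total counts ranged from 24182798 to 30603326 per library, and 16446 genes were tested. Sucnr1 stood between 2.05 and 4.67 CPM (read counts scaled to library size by the trimmed mean of M-values) in the knockout libraries and between 38.01 and 75.9 CPM in the controls. The adipocyte marker list was abundant in every library, with a summed level of 42470 to 57270 CPM in the knockout group and 27870 to 57990 CPM in the controls. Control libraries 3 and 6 had the lowest sums (32510 and 27870 CPM). Each of the 12 adipocyte markers had a higher fitted level after the knockout, and none passed the threshold. RNA of neighbouring tissue was also present. The 12 epididymis markers summed to between 3.27 and 5504 CPM among the knockout libraries and between 32.0 and 14920 CPM among the controls. They were highest, from 1362 to 14920 CPM, in knockout libraries 2 and 3 and control libraries 2, 3 and 6, called epididymis-rich here. Knockout library 5, not called so, held 36.4 CPM of the marker Adam7. In control library 3 the marker Crisp1 held 2715 of the 2718 CPM, so the name rests on that gene there. Adam7, Lcn5 and Rnase9 stood at 0.115, 0.461 and 0 CPM in control library 3. Control library 3 also held 7619 CPM of smooth muscle and vas deferens markers, and control library 2 held 1185 CPM. The other libraries had 135.4 to 277.2 CPM of these markers. Knockout library 6 held 6623 CPM of hepatocyte markers. Fitted levels of all 8 endothelial, all 8 smooth muscle and vas deferens and 9 of 10 macrophage markers were lower with the knockout, and 5 of 8 erythroid markers were higher, none past the edgeR threshold. Among the endothelial markers, Cldn5, a tight junction gene, did not overlap between the groups (log2 fold change -1.20, edgeR adjusted p = 0.103), and passed with DESeq2 (adjusted p = 1.3e-06) and in edgeR with the adipocyte score as a covariate (adjusted p = 0.0439). DESeq2 also called the smooth muscle and vas deferens markers Cnn1 (adjusted p = 0.0186) and Akr1b7 (adjusted p = 0.0115). Over all genes DESeq2 called 1.36%.

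Gsta4 was the gene of the set that rose in the knockout group (log2 fold change 1.39, SE 0.16, adjusted p = 0.0168 by edgeR's quasi-likelihood test with Benjamini-Hochberg adjustment over all 16446 genes). That was 1 of 46 tested members, where 0.0608% of all tested genes passed, 0.0243% as higher and 0.0365% as lower. DESeq2 called the same single member, and 1.36% of all genes. The set was chosen with this difference already known. At an unadjusted p under 0.05 there were 5 members, which is 10.9% of those tested, beside 10.1% of all genes. Of these 5, 3 were higher (5.36% of all genes) and 2 lower (4.77%). Of the 46 fold changes, 23 were above 0 and 23 below, with a median of -0.02 on the log2 scale, and over all tested genes 44.8% were above 0 with a median of -0.03. Without control library 6 the members divided into 29 above and 17 below, and without knockout library 6 into 17 above and 29 below. The set as a whole stood near the background.

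**Figure D1:**
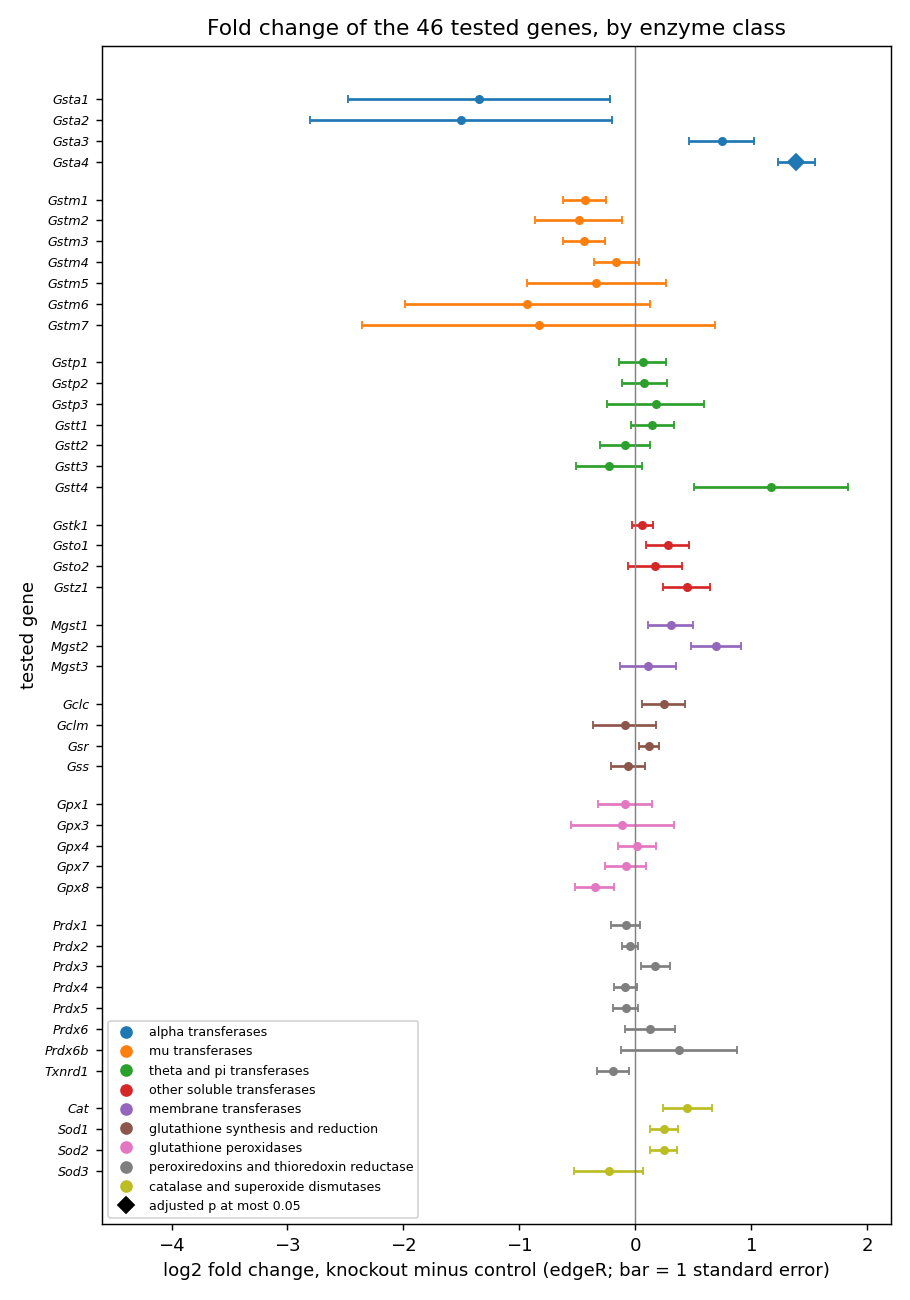
The log2 fold change of each of the 46 tested genes (x axis, knockout minus control) is drawn with 1 standard error, and genes are grouped by enzyme class. Gsta4, the diamond, has a log2 fold change of 1.39, whereas the widest bars belong to Gsta1, Gsta2, Gstm6 and Gstm7, whose levels differ most between libraries.

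The alpha class of soluble transferases held 4 genes. Gsta4 (ENSMUSG00000032348) occupies chromosome 9, 78182774 to 78209349, plus strand (mm10). Its level was 54.2, 46.3, 52.2, 37.3 and 53.3 CPM in knockout libraries 2 to 6. In control libraries 2 to 6 it was 14.6, 20.3, 22.8, 14.4 and 20.8 CPM. The lowest knockout library stood above the highest control library, which was true of 1 tested member. Of all tested genes, 1.91% had groups that did not overlap, 1.01% as higher and 0.9% as lower. The group means were 48.7 ± 7.1 and 18.6 ± 3.8 CPM (SD, n = 5 each), a ratio of 2.62. An exact two-sided permutation test of log2 CPM gave p = 0.00794, the smallest that 5 against 5 libraries allow. That value follows from the lack of overlap and adds no support of its own. More cells of a type and more RNA per cell cannot be told apart in such tissue samples.

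The size of the Gsta4 difference moved little between alternatives, while its call was lost in several. The log2 fold change stayed between 1.31 and 1.49 in 23 alternative fits, 13 of which called the gene. The call was lost without knockout library 2 (adjusted p = 0.067, edgeR), 3 (0.0561), 4 (0.0754) or 6 (0.0529) and without control library 2 (0.0576) or 3 (0.0634). It was also lost with a score of adipocyte markers as covariate, where the log2 fold change was 1.42 (edgeR adjusted p = 0.0634). With control libraries 3 and 6 both left out it was 1.49 (edgeR adjusted p = 0.0728). With the 5 epididymis-rich libraries left out, which kept 3 knockout and 2 control libraries, it was 1.35 (edgeR adjusted p = 0.853, unadjusted p = 0.00219).

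Gsta3 (ENSMUSG00000025934, chromosome 1, 21240589 to 21265661, plus strand) was the alpha gene with the highest level per length, 27.7 CPM per kb of exon beside 26.6 for Gsta4. Length here is that of all annotated exons merged, 4344 bases for Gsta3 and 1266 for Gsta4, so levels per length depend on the annotation. Gsta3 stood at 162, 141, 165, 68.3 and 215 CPM in knockout libraries 2 to 6 and at 84.7, 61.4, 110, 80.6 and 112 CPM in control libraries 2 to 6. In 4 knockout libraries the level was above every control, and knockout library 5 lay within the control range. The highest level was in knockout library 6, the library rich in hepatocyte RNA, and the part of that RNA was not tested. The fitted difference was 0.74 on the log2 scale (SE 0.28, edgeR adjusted p = 0.446). It was 0.635 with a score of hepatocyte markers as covariate and 0.58 without knockout library 6.

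Gsta1 and Gsta2, close copies that lie beside Gsta4 on chromosome 9, were scarce. Gsta2 stood at 0.32, 2.36, 0.07, 0.11 and 0.98 CPM in knockout libraries 2 to 6 and at 1.38, 7.15, 0.04, 0.04 and 2.35 CPM in control libraries 2 to 6. The highest value belonged to control library 3, which was rich in vas deferens RNA, and Gsta1 was also highest there, at 3.42 CPM. The part of that RNA was not tested. Both had negative fitted differences with wide errors, and with the adipocyte score as a covariate all 4 alpha genes were higher. Of 50-base windows of the Gsta1 transcripts, 90.5% occur in transcripts of another gene, and for Gsta2 the share was 49.8%, so their counts are uncertain. For Gsta4 it was 0%, and for Gsta3 0.3%.

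**Figure D2:**
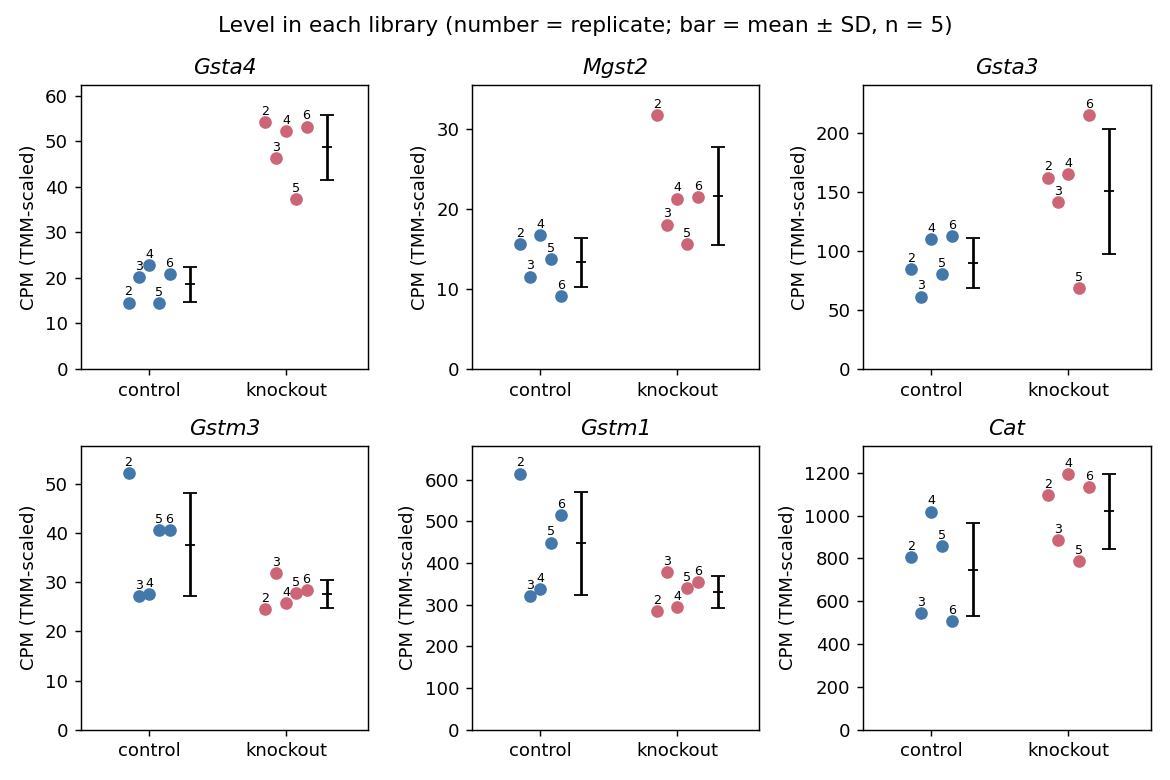
Scaled CPM (y axis, from 0) is shown for Cat and the 5 genes whose unadjusted p was under 0.05, in each library, labelled by its replicate number, with the mean and SD of each group (n = 5). The groups are apart for Gsta4, where the knockout libraries stand between 37.3 and 54.2 CPM and the controls between 14.4 and 22.8, and they overlap in the other 5 panels.

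Around Gsta4, 15 other tested genes start within 1 Mb, and none of them passed the threshold, beside 0.0608% of all tested genes. Of these, 4 had higher and 11 lower fitted levels with the knockout, where 44.8% of all tested genes were above 0. None of the 15 separated the groups, beside 1.91% of all tested genes. Gclc, the catalytic subunit of the enzyme that limits glutathione synthesis, starts 428 kb away. It stood at 46.04, 56.5, 41.1, 41.2 and 59.1 CPM in knockout libraries 2 to 6 and at 37.3, 32.7, 39.6, 34.6 and 62.0 CPM in control libraries 2 to 6. Control library 6 held the highest value of both groups, while the other controls lay below every knockout library. On the log2 scale the difference was 0.24 (SE 0.19, edgeR adjusted p = 0.664). Fbxo9, an F-box gene 101 kb away, was the neighbour with an unadjusted p under 0.05, with 49.8 ± 3.0 CPM after the knockout and 41.5 ± 2.8 CPM without it (SD, n = 5 each). Its log2 fold change was 0.26 (edgeR adjusted p = 0.36), and DESeq2 called it (adjusted p = 0.0288), beside 1.36% of all genes. Gsta1, Gsta2 and the annotated genes Gm3776 and Gm10639, which lie between 47.9 and 148 kb beyond Gsta4, had log2 fold changes of -1.25 to -1.50, with standard errors of 1.07 to 1.31. Of the 50-base windows of Gsta1, 75.7% occur in Gm3776, and of those of Gsta2, 31.8% occur in Gm10639. These genes therefore cannot be read separately, though each is counted among the 11 lower neighbours. The neighbours on either side thus had smaller or opposite fitted differences than Gsta4, and the difference from Gsta4 itself was not tested.

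**Figure D3:**
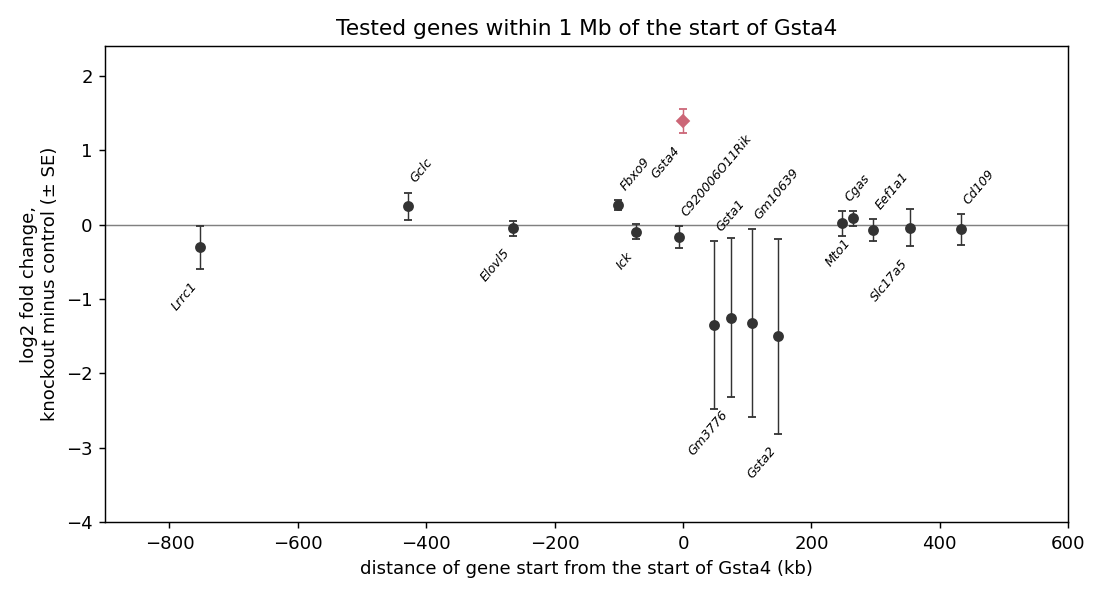
The log2 fold change (y axis, knockout minus control, bar 1 standard error) of every tested gene within 1 Mb is plotted against the distance of its start from that of Gsta4 in kb. Gsta4 stands at 1.39, and the highest of the 15 neighbours is Fbxo9 at 0.26.

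The membrane-bound transferases were represented by 3 genes, all with higher fitted levels after the knockout but none past the threshold. Without control library 3 or 6, or with the adipocyte score as a covariate, 2 of the 3 were higher. Mgst2, which makes leukotriene C4 and reduces lipid hydroperoxides, had the smallest p of the set after Gsta4. Mgst2 (ENSMUSG00000074604, chromosome 3, 51660360 to 51682677, plus strand) stood at 31.8, 18.0, 21.3, 15.6 and 21.5 CPM in knockout libraries 2 to 6. In control libraries 2 to 6 it was 15.6, 11.5, 16.7, 13.7 and 9.12 CPM. Knockout library 2 was highest by a wide margin, and knockout library 5 lay among the controls. Mgst2 thus differed by 0.70 on the log2 scale (SE 0.22, edgeR adjusted p = 0.407), by 0.41 with the adipocyte score as a covariate and by 0.35 without the epididymis-rich libraries.

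Mgst1, the most abundant transferase of the set per length at 320 CPM per kb, stood at 743, 637, 593, 693 and 896 CPM in knockout libraries 2 to 6. The controls had 671, 433, 781, 585 and 412 CPM. Its groups overlapped, and the 2 lowest values belonged to control libraries 3 and 6, those with the lowest adipocyte marker sums. A log2 fold change of 0.31 was fitted, and 2 standard errors either side reached from -0.08 to 0.70 (edgeR adjusted p = 0.601). It was 0.04 with the adipocyte score as a covariate, 0.20 without control library 6, 0.07 without control libraries 3 and 6 and 0.09 without the epididymis-rich libraries. Mgst3 had 0.11 (edgeR adjusted p = 0.875).

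The promoters of Gsta3 and Mgst2 are shown because they are the members after Gsta4 with the smallest p among those that were higher. The RefSeq table (GRCm38.p6) held windows for 42 of the 49 genes, each running from 250 bases before the start to 50 after it. Gsta3 is chr1:21240335-21240634 on the plus strand, with the antioxidant response element core TGACNNNGC in capitals. Mgst2 is chr3:51660929-51661228 on the plus strand, with the AP-1 site TGANTCA in capitals.
Gsta3: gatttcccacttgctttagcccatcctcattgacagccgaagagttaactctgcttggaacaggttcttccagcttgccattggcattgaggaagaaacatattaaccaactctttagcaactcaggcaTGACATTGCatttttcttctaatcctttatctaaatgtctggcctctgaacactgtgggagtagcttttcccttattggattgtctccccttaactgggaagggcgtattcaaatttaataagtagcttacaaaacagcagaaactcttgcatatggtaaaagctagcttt
Mgst2: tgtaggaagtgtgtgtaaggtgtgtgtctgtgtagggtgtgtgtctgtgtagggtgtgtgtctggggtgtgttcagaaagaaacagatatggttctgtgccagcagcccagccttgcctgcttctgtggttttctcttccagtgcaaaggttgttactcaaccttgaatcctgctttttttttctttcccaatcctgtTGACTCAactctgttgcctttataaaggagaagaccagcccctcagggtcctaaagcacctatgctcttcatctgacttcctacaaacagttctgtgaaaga
Both strands were searched for these motifs and for the E-box CACGTG. The antioxidant core was found in 8 of 56 windows of members (14.3%), beside 12.4% of 32817 windows of all genes. The AP-1 site was in 8.93% of the members' windows and 7.81% of all, and the E-box in 3.57% and 7.15%. The 2 promoters printed here held no E-box match, and matches are descriptions of letters only. Windows of Gstm1 and Gstm3, the 2 lower members with an unadjusted p under 0.05, are not printed and held none of these motifs.

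All 7 mu transferases, which lie together on chromosome 3 between 107895821 and 108044894, had lower fitted levels after the knockout, and none passed the threshold. The count depended on the libraries used. Without control library 6, 3 were higher and 4 lower, and their median moved from -0.44 to -0.04 on the log2 scale. Without control library 6 and knockout library 3, 5 of the 7 were lower (median -0.21), and without the 5 epididymis-rich libraries 6 of the 7 were lower (median -0.26). With the adipocyte score as a covariate 5 of the 7 were higher. The count of 7 lower was the same under the 2 other scalings.

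Gstm1, the most abundant mu gene (264 CPM per kb), stood at 285, 377, 294, 339 and 355 CPM in knockout libraries 2 to 6. The controls had 614, 320, 337, 448 and 515 CPM. Control libraries 2, 5 and 6 were above every knockout library, and controls 3 and 4 lay inside the knockout range. It differed by -0.44 on the log2 scale (SE 0.18, edgeR adjusted p = 0.483), by -0.39 without control library 6 and by -0.26 without the epididymis-rich libraries. Gstm3 was likewise highest in control libraries 2, 5 and 6, with 24.5, 31.9, 25.7, 27.8 and 28.4 CPM in knockout libraries 2 to 6 and 52.1, 27.1, 27.6, 40.7 and 40.6 CPM in the controls. Its fitted difference was also -0.44 (SE 0.18, edgeR adjusted p = 0.474), and -0.42 without control library 6. Gstm1 and Gstm3 share 18.9% and 28.8% of their 50-base windows with other genes and pseudogenes.

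The other 5 mu genes were each highest in control library 6 and next highest in knockout library 3, the 2 libraries with the most epididymis markers. In Gstm4 the spread was small, from 11.5 to 22.6 CPM over all 10 libraries. Gstm7 (ENSMUSG00000004035) stood at 65.1, 271, 3.99, 14.4 and 7.21 CPM in knockout libraries 2 to 6 and at 52.6, 4.88, 10.4, 15.8 and 559.5 CPM in control libraries 2 to 6. Its highest library exceeded its median library 37.1-fold. The 4 libraries with the highest values, control 6 and knockout 3, 2 and then control 2, were all epididymis-rich. Control library 3 was the exception, with 2718 CPM of those markers and little Gstm7. Of that sum 2715 CPM were Crisp1, and the markers Adam7 and Lcn5 stood at 0.115 and 0.461 CPM there.

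Gstm6 had the same 2 leading libraries, reaching 143 CPM in the first and 59.3 CPM in the second, and at most 18.8 CPM elsewhere. Gstm5 reached 152 and 77.1 CPM in them, with at most 51.6 CPM elsewhere, and Gstm2 339 and 187 CPM, with at most 145 CPM elsewhere. Gpx5, a peroxidase of the epididymis that was too unevenly counted to be tested, stood at 118 CPM in control library 2, 64.2 in control library 6, 7.46 in knockout library 2 and 2.46 in knockout library 3. In the other 6 libraries it had no count, which allows up to 0.115 CPM (3 counts per library, counting error only). How much of these levels comes from epididymal RNA was not tested. With the epididymis score as a covariate, 6 of the 7 mu genes were lower and 1 higher (median -0.13).

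**Figure D4:**
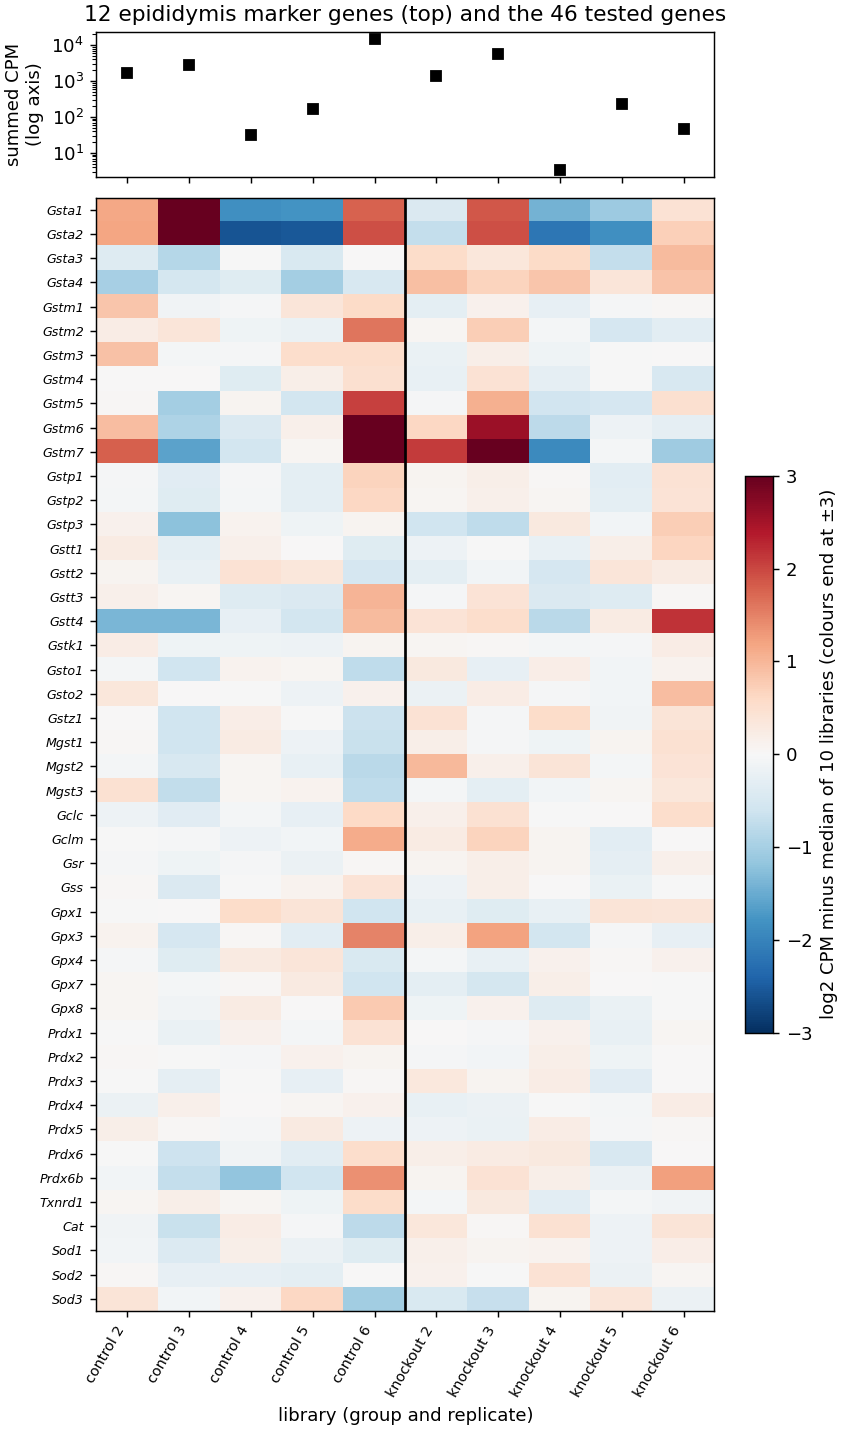
The upper panel gives the summed CPM of 12 epididymis markers in each library on a log axis, and the lower panel gives the log2 CPM of each of the 46 tested genes minus its median over the 10 libraries (colour, ending at 3 either way). The darkest cells of Gstm6 and Gstm7 stand in control library 6 and knockout library 3, and those of Gsta1 and Gsta2 in control library 3.

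The theta and pi transferases were divided, with 5 higher, 2 lower and none past the threshold. Scaling by library totals gave 4 and 3, and without knockout library 6 there was 1 higher and 6 lower. Gstp2, the member of this class with the highest level per length (95.7 CPM per kb), stood at 107, 114, 106, 83.1 and 137 CPM in knockout libraries 2 to 6. Its control values were 98.7, 79.5, 99.2, 83.9 and 157 CPM. The groups overlapped throughout, and the fitted difference was 0.08, with 2 standard errors either side reaching from -0.31 to 0.47 (edgeR adjusted p = 0.893). Its counts were 0.854 to 0.891 of those of Gstp1 in every library, and 49.1% of its 50-base windows occur in Gstp1, so the pair cannot be read separately. Gstt4 had the widest difference of the class, 1.17 on the log2 scale (SE 0.66, edgeR adjusted p = 0.56). Its highest level, 3.89 CPM, was in the hepatocyte-rich knockout library 6, and no other library passed 1.61 CPM. Fitted differences of Gstt1, Gstt2 and Gstt3 were 0.15, -0.09 and -0.23 on the log2 scale, and that of the scarce Gstp3 was 0.17.

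Among the omega, zeta and kappa transferases all 4 genes were higher, none past the threshold, and 3 of 4 were higher when libraries were scaled by their totals, with the adipocyte score as a covariate, without knockout library 6 or without the epididymis-rich libraries. Gstz1, which isomerises maleylacetoacetate in tyrosine breakdown, was the most abundant of them (83.8 CPM per kb). It stood at 548, 396, 601, 381 and 530 CPM in knockout libraries 2 to 6 and at 411, 268, 465, 404 and 260 CPM in control libraries 2 to 6. Knockout libraries 2, 4 and 6 were above every control, and knockouts 3 and 5 lay within the control range. Gstz1 differed by 0.44 on the log2 scale (SE 0.20, edgeR adjusted p = 0.495). The difference was 0.12 with the adipocyte score as a covariate, 0.20 without control libraries 3 and 6 and 0.21 without the epididymis-rich libraries. Gsto1 and Gsto2, which reduce dehydroascorbate, had 0.28 and 0.17, and Gstk1, a mitochondrial and peroxisomal form, had 0.06.

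Genes of glutathione synthesis and reduction were divided, with 2 higher and 2 lower and none past the threshold. Gsr, the reductase that restores glutathione, had the highest level of the class per length (21.1 CPM per kb), with 61.9, 65.5, 62.1, 48.3 and 64.5 CPM in knockout libraries 2 to 6. The controls had 56.8, 53.1, 56.8, 52.0 and 60.1 CPM. In 4 knockout libraries the level exceeded every control, and knockout library 5 was the lowest of all 10. Its fitted difference was 0.12, with 2 standard errors either side reaching from -0.06 to 0.29 (edgeR adjusted p = 0.653). Gclm, the modifier subunit paired with Gclc, stood at 33.9 to 66.4 CPM among knockout libraries and at 37.8 to 41.9 CPM in 4 controls. Control library 6 alone had 91.5 CPM. Without it all 4 genes of the class were higher. Gss, which completes glutathione, had -0.06 on the log2 scale.

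None of the 5 tested glutathione peroxidases passed the threshold, and 4 had lower fitted levels, or all 5 when scaled by library totals. Gpx3, the secreted peroxidase and the most abundant of the class (318 CPM per kb), stood at 530, 1073, 319, 455 and 395 CPM in knockout libraries 2 to 6. Its control values were 504, 330, 480, 376 and 1308 CPM. The 2 highest libraries were those with the most epididymis markers, knockout 3 and control 6. Gpx3 differed by -0.11 on the log2 scale (SE 0.44, edgeR adjusted p = 0.937), and the sign turned in 6 alternative fits.

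Gpx1, the cytosolic peroxidase, ranged from 296 to 493 CPM in the knockout group and from 249 to 554.5 CPM in the controls. Gpx4, the peroxidase that reduces lipid hydroperoxides inside membranes, had 383 ± 38 and 379 ± 93 CPM (SD, n = 5 each). Between the groups it differed by 0.01, with 2 standard errors either side reaching from -0.32 to 0.35 (edgeR adjusted p = 0.978). Of its 50-base windows, 34.7% occur in the pseudogene Gpx4-ps2. Gpx8, a peroxidase of the endoplasmic reticulum, had the lowest fitted difference of the class, -0.35 (SE 0.17, edgeR adjusted p = 0.514), and was highest in control library 6. Gpx7, another peroxidase of that compartment, had -0.08. Gpx2 and Gpx6 stayed at or under 0.281 and 0.456 CPM.

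Peroxiredoxins were divided and none passed the threshold. Of 8 tested genes in the class, Txnrd1 included, 3 were higher and 5 lower, with adjusted p values of 0.636 to 0.838 (edgeR). Prdx1, the most abundant per length (91.8 CPM per kb), stood at 273, 268, 297, 234 and 283 CPM in knockout libraries 2 to 6 and at 271, 238, 296, 262 and 371 CPM in control libraries 2 to 6. Apart from control library 6 the values covered the same range in both groups. Prdx1 differed by -0.09 on the log2 scale, with 2 standard errors either side reaching from -0.33 to 0.16 (edgeR adjusted p = 0.809). Prdx2 lay between 77.7 and 96.5 CPM over the 10 libraries. Prdx3, the mitochondrial member, had a fitted difference of 0.17, Prdx4, of the endoplasmic reticulum, -0.09, Prdx5 -0.08 and Prdx6, which acts on phospholipid peroxides, 0.13. The scarce Prdx6b was highest in control library 6 and knockout library 6, at 7.01 and 6.33 CPM. Txnrd1, which reduces cytosolic thioredoxin, had -0.19 (SE 0.14).

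Catalase was the most abundant gene of the set per length, at 338 CPM per kb. It stood at 1095, 887, 1194, 788 and 1134 CPM in knockout libraries 2 to 6 and at 806.5, 545.5, 1019, 856 and 506.5 CPM in control libraries 2 to 6. Knockout libraries 2, 4 and 6 were above every control, and the 2 lowest values were those of control libraries 3 and 6. Catalase differed by 0.45 on the log2 scale (SE 0.21, edgeR adjusted p = 0.502), and by 0.12 (SE 0.10) with the adipocyte score as a covariate. With control libraries 3 and 6 left out it was 0.18, and with the 5 epididymis-rich libraries left out 0.14 (SE 0.21). Sod1 and Sod2, the cytosolic and mitochondrial dismutases, each had 0.24 (SE 0.12), and Sod3, the secreted form, had -0.23 (SE 0.30), none past the threshold.

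**Figure D5:**
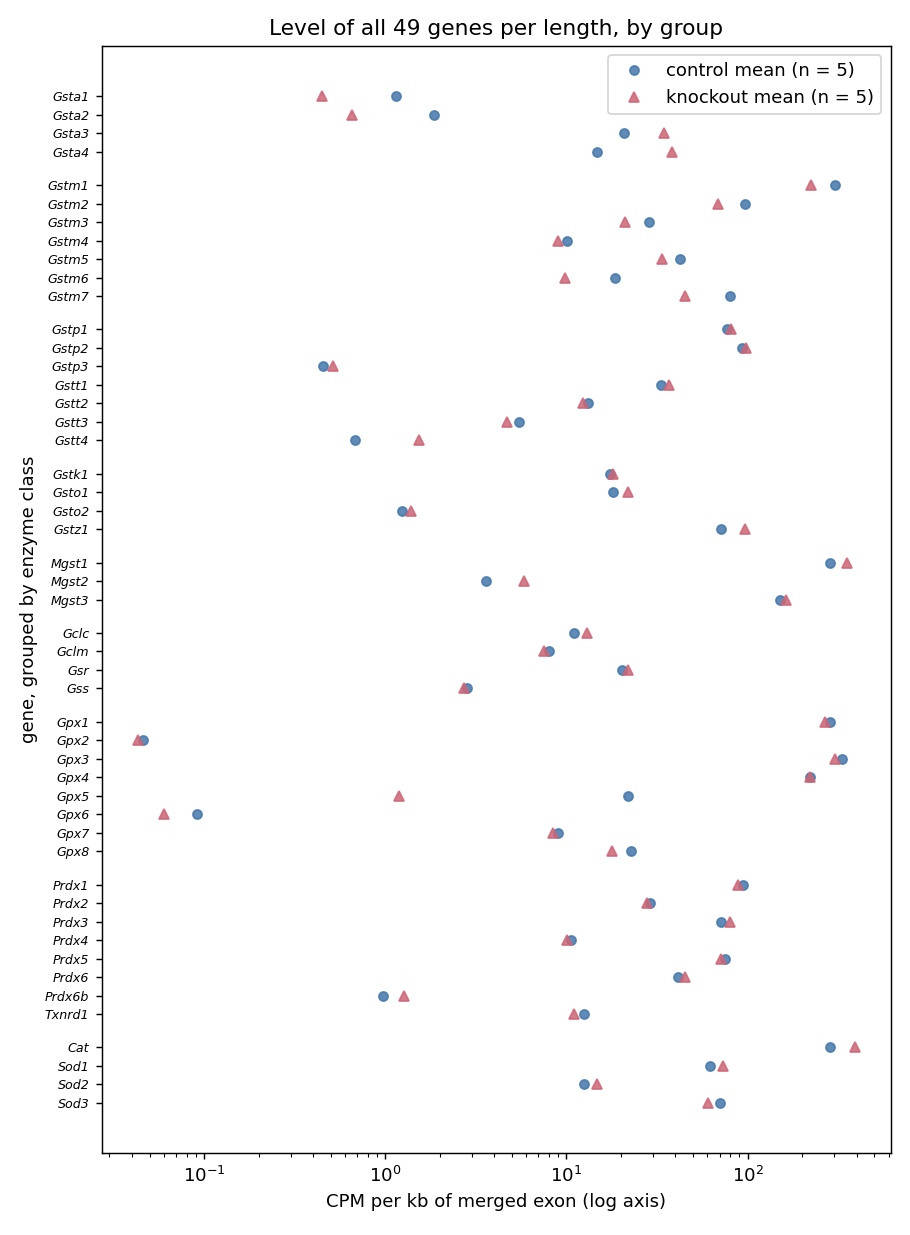
Mean CPM per kb of merged exon (x axis, log scale) is shown for all 49 genes in each group (n = 5 each). Cat, Mgst1 and Gpx3 stand highest, at 338, 320 and 318 CPM per kb over all libraries, and Gpx2 and Gpx6 lowest.

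Levels per length thus placed catalase, Mgst1, Gpx3, Gpx1 and Gstm1 at the top of the set, with 338, 320, 318, 276 and 264 CPM per kb of exon. Gsta4 ranked 23 of 49 over all libraries, at 38.4 CPM per kb with the knockout and 14.7 without it. Most members were steady between libraries, since in 35 of the 46 tested genes the highest library stayed under 2 times the median. In 6 it reached at least 4 times the median, namely Gsta1, Gsta2, Gstm5, Gstm6, Gstm7 and Gstt4. Control library 6 held the highest level of 17 tested members.

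Partner genes outside the set were examined as 7 lists, with 106 distinct genes tested. None passed the threshold over all genes (edgeR), and 12 had an unadjusted p under 0.05, which is 11.3% beside 10.1% of all genes. DESeq2 called 1 partner gene, beside 1.36% of all genes. That gene was Txnrd3, a thioredoxin glutathione reductase best known from testis, which stood at 21.5, 19.2, 25.8, 18.1 and 30.3 CPM in knockout libraries 2 to 6. The controls had 14.5, 14.7, 17.2, 14.9 and 14.5 CPM, so the groups did not overlap, as was the case for 2 of the 106 partner genes and 1.91% of all tested genes. It differed by 0.60 on the log2 scale (SE 0.14, edgeR adjusted p = 0.34, DESeq2 adjusted p = 0.0166). The thioredoxin list had 12 of 17 tested genes higher (median 0.06).

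The genes that supply NADPH, the electron donor of both systems, had 13 of 16 higher and a median of 0.10, where 44.8% of all tested genes were above 0. Of the 16 genes, 4 had an unadjusted p under 0.05, all higher, beside 5.36% of all genes. With the adipocyte score as a covariate these 4 genes had edgeR adjusted p values of 0.52 to 0.71, beside 0.4 to 0.49 without it. The 12 adipocyte markers were all higher as well, and whether adipocyte content bears on the 4 genes was not tested. Adjusted p values of different fits do not measure a change in the fitted difference. Me1, malic enzyme, stood at 642, 272, 875, 198 and 259 CPM in knockout libraries 2 to 6 and at 280, 164, 270, 269 and 134 CPM in control libraries 2 to 6. Knockout libraries 2 and 4 were far above the rest, and the other 3 lay within the control range (log2 fold change 1.01, SE 0.43, edgeR adjusted p = 0.487). Nadk, which makes NADP, had 0.33 (SE 0.10), the folate enzyme Aldh1l1 0.67 (SE 0.26) and Taldo1, transaldolase, 0.46 (SE 0.20), with edgeR adjusted p values of 0.4 to 0.49.

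The list around NRF2, the factor that drives many glutathione genes, was divided, with 9 higher and 10 lower. Mafk, a small MAF partner of NRF2, averaged 24.3 ± 4.6 CPM with the knockout and 35.7 ± 7.9 CPM without it (SD, n = 5 each, log2 fold change -0.56, edgeR adjusted p = 0.4). Ugdh, which makes UDP-glucuronate, had 0.37 (edgeR adjusted p = 0.48). Glutathione turnover had 11 of 18 higher, and Ggt7, a member of the gamma-glutamyl transferase family, was the other gene without overlap, at 1.35 to 1.69 CPM against 1.88 to 2.24 CPM in the controls (log2 fold change -0.40, edgeR adjusted p = 0.436).

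Enzymes that clear lipid aldehydes, the substrates of GSTA4, had 4 of 12 higher. Aldh2, the mitochondrial aldehyde dehydrogenase, stood at 419 ± 41 and 347 ± 49 CPM (SD, n = 5 each, log2 fold change 0.28, edgeR adjusted p = 0.485). Sources of peroxide had 7 of 15 higher, with Xdh, xanthine dehydrogenase, at 0.37 (edgeR adjusted p = 0.492). Genes of selenoprotein synthesis, on which Gpx1 to Gpx4 and Txnrd1 depend, had 5 of 9 higher, with Sephs2, a selenophosphate synthetase, at 0.47 (edgeR adjusted p = 0.498). The medians of these 3 lists were -0.04, 0.00 and 0.01, beside -0.03 for all genes tested.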

How the data were processed

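Total RNA of epididymal fat was sequenced from 10 mice, 5 per group. Per the labels' protocols, 300 ng of RNA entered a stranded total RNA kit. The authors deposited raw counts per Ensembl gene, and the aligner STAR 2.5.2 and build mm10 are named per the submitters' processing notes. How reads were assigned to genes, by which program and with or without strand, is not given here, so overlapping and near-identical genes are uncertain. Columns were matched to samples by title and groups taken from the condition label.

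Symbols, coordinates and merged exon lengths came from GENCODE release M21, which named 26008 of 26040 genes. The members and gene lists were chosen with earlier results of these data known. Counts were fitted in R 4.3.3 with edgeR 4.0.16 (filterByExpr with a minimum count of 10 and a minimum total of 15, TMM scaling, robust quasi-likelihood test, with genotype as sole factor). Adjustment of p-values was by Benjamini-Hochberg over all 16446 tested genes, with a threshold of 0.05. Log2 CPM used a prior count of 2, and standard errors came from the fold change and its F statistic. Exact permutation tests ran over 252 assignments. Alternatives used limma 3.58.1, DESeq2 1.42.0, other scalings and filters, marker scores as covariates, and samples left out. The steps were tested on simulated data. No library pair agreed within sampling noise (chi-square per degree of freedom at least 24.57).

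Members named with every value were Gsta4, those with an unadjusted p under 0.05, those whose groups did not overlap and the most abundant per length in each class. Of each partner list up to 4 genes with the smallest p could be named. Gsta1, Gsta2, Gstm2, Gstm5, Gstm6, Gstm7, Gpx1, Gpx4, Gpx5, Gpx8, Gclc, Gclm, Gstt4 and other members were named after their values were seen. The same holds for the markers Cldn5, Cnn1, Akr1b7, Crisp1, Adam7, Lcn5 and Rnase9.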

Additional observations from a re-analysis of the deposited data

Results flagged for a closer look

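In 92 groups of 5 libraries (46 tested genes in each genotype), 3 single libraries stood apart from the rest of their group by Dixon's criterion on log2 CPM, where chance gives about 1 in 20 groups. Gclm stood at 91.5 CPM in control library 6, and the next control had 41.9 CPM. Gsr stood at 48.3 CPM in knockout library 5, below the next knockout at 61.9 CPM. Gstp3 stood at 0.154 CPM in control library 3, and the next control had 0.415 CPM.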

How the results depend on the processing

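The count of called members was 1 and became 0 with the replicate block, with the adipocyte score as a covariate, with control libraries 3 and 6 both left out and, an alternative chosen after seeing the data, with the 5 epididymis-rich libraries left out. It ranged from 0 to 1 when each library was left out in turn. For Gsta4 the log2 fold change and edgeR adjusted p were 1.401 and 0.0541 with the replicate block, 1.417 and 0.0634 with the adipocyte score, 1.488 and 0.0728 without controls 3 and 6, and 1.351 and 0.853 without the epididymis-rich libraries, where only 3 and 2 libraries were left. Leaving out each library gave 1.312 to 1.475, with adjusted p of 0.0169 to 0.0754, called in 4 of 10 fits. DESeq2 called 1 gene in the partner lists and 1 gene around Gsta4, beside 1.36% of all genes. The main test called 0 of each, with 12 and 1 at an unadjusted p under 0.05. Deviations of same-numbered libraries correlated at 0.377, -0.113, 0.632, 0.436 and -0.0961 for numbers 2 to 6, and 4 of 10 libraries were closest to their own number. Since 2 of the 5 correlations were below 0 and no label ties the numbers to a shared source, the numbers were not taken as pairs. Of the 12 other named genes, 265 of 276 alternative fits kept direction and side of the threshold, and Fbxo9 passed with DESeq2. Gpx3 reversed with the adipocyte score (0.432), the epididymis score (0.015), without knockout 4 (0.033), without control 6 (0.387), without controls 3 and 6 (0.284) and without knockout 3 and control 6 (0.006). Prdx1 reversed without control 6 (0.019) and without knockout 3 and control 6 (0.025), and Gstp2 without knockout 6 (-0.016) or control 3 (-0.010). Over the fits that each left out 1 library Gpx3 ranged from -0.497 to 0.387, Prdx1 from -0.152 to 0.019 and Gstp2 from -0.016 to 0.271. The cause was not tested. Depth limits the scarce genes Gsta1, Gsta2, Gstp3, Gstt4 and Gpx2.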
